A study of Mus musculus with 238 samples.

Results

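The thalamus was compared with the rest of the brain in the control animals of a study of mouse brain regions under 2 interventions in old age. Its libraries were chosen by their tissue label and by treatment: 8 thalamus libraries from 8 control mice were set against 96 libraries of 13 other brain regions of the same mice, 104 of the 238 libraries in the series. All animals were C57BL/6JN mice, 19 months old. Of the control mice, 4 were females with free access to food (AL), the controls of a dietary restriction experiment whose treated females are labelled aDR. The other 4 were males given retro-orbital PBS, the controls of an experiment in which treated males received plasma of young mice (YMP). Sex and experiment are the same split and cannot be told apart, so the groups are called cohorts below. RNA was isolated from homogenized tissue, and the libraries were unstranded, made with the Smart-Seq2 and Nextera XT chemistries. The labels do not say where the thalamus was separated from its neighbours, the habenula, hypothalamus, hippocampus and the choroid plexus of the ventricles.

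The thalamus is the main relay of the forebrain. Most of its neurons are glutamatergic projection cells that carry sensory, motor and limbic signals to the cortex, and they fire either single spikes or bursts that depend on low-threshold calcium channels. In rodents, most thalamic nuclei hold few inhibitory cells of their own, and much of their inhibition comes from the GABAergic reticular nucleus that wraps around them and from the basal ganglia. The nuclei are set apart during development by transcription factors such as Tcf7l2, Gbx2 and Lef1, many of which stay expressed in the adult.

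For each mouse, the value of a gene was its log2 CPM (read counts scaled to the library total after TMM adjustment) in the thalamus minus the mean log2 CPM over that mouse's other brain regions, without choroid plexus and liver. The mean of this difference over the 8 mice was tested with limma, with Benjamini-Hochberg adjustment over all 15252 genes tested, and genes with an adjusted p under 0.05 are called higher or lower. The level given for the other regions of a mouse is the geometric mean of their CPM. CPM is not scaled to gene length, so levels are compared between libraries for 1 gene and never between genes.

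The thalamus libraries held total counts of 4.48 to 12.2 M (median 8.10 M) and the other brain libraries 1.96 to 32.4 M (median 8.80 M). Mitochondrial transcripts took 1.85 to 2.64% of counts in the thalamus and 1.65 to 3.60% elsewhere. Several thalamus libraries stood apart in single groups of transcripts. The pituitary hormone gene Prl, which encodes prolactin, was at 0 in 5 thalamus libraries, and at 123, 341 and 629 CPM in those of AL mouse 69, PBS mouse 80 and AL mouse 68. Gh and Cga, also pituitary hormone genes, were above 0 in the same 3 libraries. The choroid plexus markers summed to 1741 CPM in the library of PBS mouse 72 and to 30.5 to 63.6 CPM in the other 7. The habenula markers summed to 897 CPM in that of PBS mouse 76 and to 267 to 361 CPM in the others. Libraries of other regions varied too. Tcf7l2 and Slc17a6, both high in the thalamus, were at 302 and 297 CPM in the subventricular zone (SVZ) of AL mouse 66. In the SVZ of AL mouse 63 they were at 30.0 and 14.2 CPM. The anterior hippocampus held 278 and 314 CPM in PBS mouse 72, and 26.0 and 3.88 CPM in PBS mouse 76. The part of these transcripts in the results below was not tested, and values without mouse 72 or 76 are given for Ttr and Tac2. Without mouse 76, Pdyn (-2.30) and Nwd2 (-1.28) were also called lower, and Hoxa5 (-0.47) and Kcnj13 (-1.60) were no longer called. These calls, apart from that of Nwd2, also moved with other single mice. Pdyn was called lower without AL mouse 63 or 66, and Hoxa5 was lost when either was left out. Kcnj13 was lost without AL mouse 63, 66 or 69 or PBS mouse 80 or 84.

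Summed, 20 relay neuron markers held 4493 to 6417 CPM in the 8 thalamus libraries and 389 to 1806 CPM in the 96 others. The ranges did not overlap. The list was chosen with earlier results of these data known, so it is no independent check of the label. In the control comparison 8664 genes were called (56.8% of those tested), 4418 higher (29%) and 4246 lower (27.8%). Of these, 692 were at least 2-fold higher (4.54%) and 814 at least 2-fold lower (5.34%). The thalamus was the highest of all sampled regions in 8 of 8 mice for 215 genes (1.41%), and the lowest in 8 of 8 for 42 (0.275%). Such ranks cover the regions sampled in a mouse: AL mouse 68 had 11 of the 13 other regions, PBS mouse 72 had 9 and PBS mouse 76 had 11, without cerebellum and hypothalamus. By region means, it was the highest of the 14 regions for 338 of the 692 genes at least 2-fold higher and the lowest for 287 of the 814 at least 2-fold lower. Of the genes at least 2-fold lower, 157 were highest in the olfactory bulb and 144 in the caudate putamen.

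The sequences just upstream of 3 genes with large differences are shown because 2 of them encode developmental transcription factors and the third encodes the main vesicular glutamate transporter of the thalamus. They are the 250 bases before the RefSeq start site, 5′ to 3′ on the gene's strand, in GRCm38.p6, with CG dinucleotides in capitals.
Shox2, chr3:66981772-66982021, minus strand: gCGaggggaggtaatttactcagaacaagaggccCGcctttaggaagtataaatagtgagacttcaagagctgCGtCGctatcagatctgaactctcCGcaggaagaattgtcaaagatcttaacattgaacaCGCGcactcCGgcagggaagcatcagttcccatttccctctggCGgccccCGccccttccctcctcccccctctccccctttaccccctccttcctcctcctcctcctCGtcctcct
Gbx2, chr1:89931177-89931426, minus strand: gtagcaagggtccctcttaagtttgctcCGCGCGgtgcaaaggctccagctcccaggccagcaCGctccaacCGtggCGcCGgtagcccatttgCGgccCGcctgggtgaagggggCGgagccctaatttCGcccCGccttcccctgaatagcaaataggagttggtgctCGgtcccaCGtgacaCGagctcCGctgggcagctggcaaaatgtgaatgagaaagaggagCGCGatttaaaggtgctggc
Slc17a6, chr7:51621580-51621829, plus strand: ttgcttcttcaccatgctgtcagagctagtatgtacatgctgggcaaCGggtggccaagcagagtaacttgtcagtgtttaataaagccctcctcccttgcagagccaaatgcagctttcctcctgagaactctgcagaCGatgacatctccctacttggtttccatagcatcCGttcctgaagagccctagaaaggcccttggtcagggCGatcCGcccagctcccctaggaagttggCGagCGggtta
The Shox2 window held 11 CG dinucleotides at 55.6% GC, that of Gbx2 18 at 61.6% and that of Slc17a6 7 at 53.2%. The letters CTTTGAA and CTTTGAT, the core recognised by the TCF/LEF factors, were searched on both strands. Neither motif was found in these windows. Of all 32851 mouse promoters of 300 bases in the RefSeq table, which run from 250 bases before to 50 after the start, 2842 held either of them (8.65%). Of the 15 genes with the largest positive differences, 14 had entries, with 16 promoters, and 1 of these, at Gtf2a1l, held the motif (6.25%). The median GC content was 57% in the 16 promoters and 52.7% in the whole table. A match of this kind is a description of the letters in the window.

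Transcription factors of thalamic development held the 2 largest positive differences. Shox2, a homeobox factor of thalamic and hindbrain neurons, lies on chromosome 3 (66971723-66981771, GRCm38). Its thalamus level was 136 CPM at the lowest, 196 at the median and 278 at the highest, and the other regions of the same mice were at 0.575 to 1.197 CPM. All 8 thalamus libraries lay above all 96 others, of which the highest held 80.4 CPM. The difference was 7.80 ± 0.15 on the log2 scale (SE, n = 8 mice; limma adjusted p = 1.86e-09). The next region was the medulla, with a mean of 28.1 ± 10.3 CPM (SD, n = 8). With limma's default variance trend, over the mean difference, the Shox2 call was lost (adjusted p = 0.164) although its value is the same.

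Gbx2, a homeobox factor that is required for thalamic neurons to mature and send axons to the cortex, lies on chromosome 1 (89927962-89931176). It was at 63.8, 79.5 and 112 CPM at the lowest, median and highest of the thalamus libraries, against 0.540 to 0.760 CPM in the other regions. The groups did not overlap, since the highest of the 96 other libraries held 19.2 CPM. The difference was 6.95 ± 0.12 on the log2 scale (SE, n = 8; limma adjusted p = 9.22e-10). Tcf7l2, a partner of beta-catenin on DNA and a selector of the thalamic fate, lies on chromosome 19 (55741797-55933659). Its thalamus levels ran from 863 through a median of 1139 to 1275 CPM, against 28.1 to 40.0 CPM elsewhere. Here too every thalamus library lay above every other, though an SVZ library, from the neurogenic zone along the lateral ventricle, reached 302 CPM. The Tcf7l2 difference was 5.05 ± 0.09 (SE, n = 8; limma adjusted p = 9.22e-10), with a mean of 126 ± 97.5 CPM in the anterior hippocampus (SD, n = 8).

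Lhx9, a LIM-homeobox factor, was at 60.7, 85.4 and 111 CPM and differed by 5.70 ± 0.08. Lef1, which also binds DNA with beta-catenin, was at 77.7, 137 and 196 CPM against 8.45 to 12.5 CPM elsewhere, a difference of 3.62 ± 0.13. Both were highest in the thalamus in 8 of 8 mice. Rora, a nuclear receptor of thalamic and cerebellar neurons, was at 486, 802 and 1081 CPM and differed by 2.79 ± 0.10, with the cerebellum next at 423 ± 42.7 CPM (SD, n = 7). Of the 20 factors on the list, 19 were tested, 17 were higher, against 29% of all genes, and 14 of these by at least 2-fold, with a median difference of 2.46 beside -0.01 over all genes. The other 2 were Nr4a2, which was lower at -1.88 ± 0.42, and Pou2f2, which was not called at -0.23 ± 0.13. Nr4a2, also a habenula gene, was at 63.9 CPM in the library of PBS mouse 76 against a median of 4.10 over the 8.

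**Figure D1:**
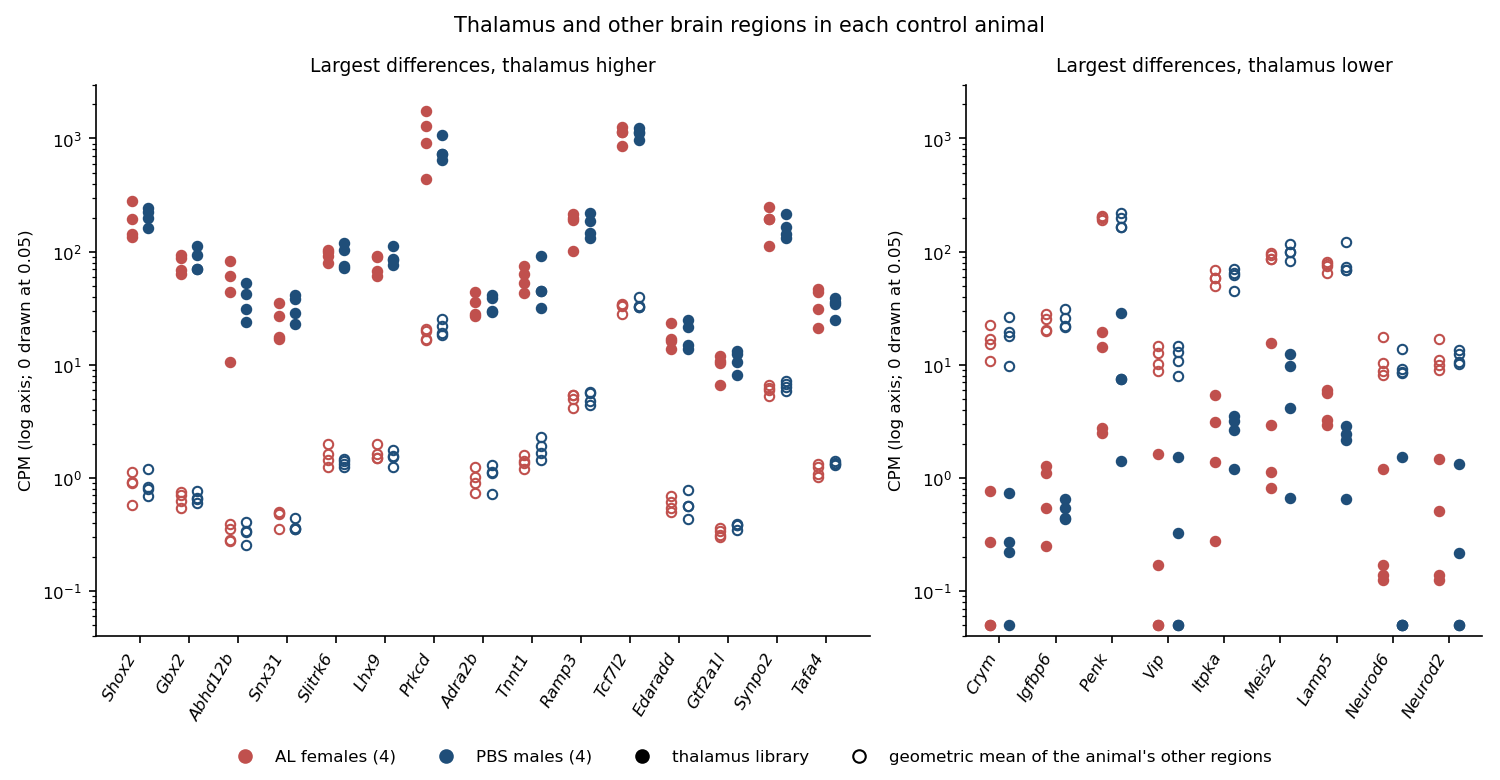
Level of the 15 genes with the largest positive and of 9 among the 10 with the largest negative differences, in CPM on a log axis, with 0 drawn at 0.05. Filled points are the 8 thalamus libraries and open points the geometric mean of the same mouse's other regions, red for AL and blue for PBS; for Shox2 the filled points lie at 136 to 278 CPM and the open ones at 0.575 to 1.197 CPM.

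Markers of relay neurons were higher as a group. Of the 20 tested, 19 were higher, all by at least 2-fold, against 4.54% of all genes, with a median difference of 3.23, and 15 were highest in the thalamus in 8 of 8 mice. Prkcd, the protein kinase C isoform that marks sensory relay neurons, was at 436, 822 and 1748 CPM in the thalamus against 16.4 to 25.3 CPM elsewhere. All 8 thalamus libraries lay above the 96 others, whose highest, in the SVZ, held 309 CPM. The difference was 5.47 ± 0.21 (SE, n = 8; limma adjusted p = 6.13e-08). Prkcd varied more between thalamus libraries than Tcf7l2 did, with SDs of 0.63 and 0.19 in log2 CPM over the 8.

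Slc17a6 encodes VGLUT2, the transporter that loads glutamate into vesicles in most subcortical excitatory neurons. It was at 674, 794 and 927 CPM in the thalamus against 24.0 to 49.2 CPM in the other regions, and no other library exceeded 330 CPM. The difference was 4.58 ± 0.11 (SE, n = 8; limma adjusted p = 5.58e-09), with the medulla, hypothalamus and pons next at 299 ± 32.0, 243 ± 57.2 and 224 ± 36.9 CPM. Its cortical counterpart Slc17a7, which encodes VGLUT1, was at 30.3, 84.8 and 124 CPM against 54.7 to 210 CPM. Those ranges overlapped, and the difference of -0.34 ± 0.19 was not called (limma adjusted p = 0.148). The call depends on how the other regions are summarised: against their median in place of their mean, Slc17a7 was lower at -1.56, and without AL mouse 66 it was lower at -0.49 (limma adjusted p = 0.0385). Levels of this gene split the brain, with 669 ± 169 CPM in the motor cortex and a geometric mean of 0.757 CPM in the hypothalamus.

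Further relay markers included Slitrk6, a neuronal membrane protein with leucine-rich repeats, at 5.98 ± 0.10, and Tnnt1, a troponin best known from slow muscle, at 5.08 ± 0.19. Ramp3, which modifies calcitonin-family receptors, was at 101, 188 and 220 CPM and differed by 5.07 ± 0.15, and Synpo2, an actin-binding protein, differed by 4.77 ± 0.12. Ntng1, the netrin-G of thalamocortical axons, was at 395, 483 and 580 CPM and differed by 3.68 ± 0.08. Calb2, which encodes the calcium buffer calretinin and marks midline nuclei, ran from 98.9 to 761 CPM, and its difference of 2.77 ± 0.21 came with the highest level in only 3 of 8 mice. Cd24a was the 1 marker not called, at -0.73 ± 0.39. The remaining genes among the 15 with the largest positive differences were Abhd12b (6.86 ± 0.28), Snx31 (6.05 ± 0.13), Adra2b (5.09 ± 0.10), Edaradd (4.95 ± 0.12), Gtf2a1l (4.90 ± 0.15) and Tafa4 (4.75 ± 0.13). Each of the 15 exceeded all 96 other libraries in all 8 thalamus libraries. They were chosen as the largest differences, so this separation follows in large part from the choice. Its share over all genes was not counted. Abhd12b, a serine hydrolase family member, was the most variable of the 15, at 10.7 to 82.3 CPM.

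Across the means of the 14 regions, the profiles most like that of Prkcd were those of Clmn (Pearson r = 0.91), Rflnb (0.90), Fam192a (0.86), Plekhg1 (0.86) and Tcf7l2 (0.85), among 10258 genes of at least 10 CPM in the thalamus. These correlations describe 14 region means that come from shared animals.

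**Figure D2:**
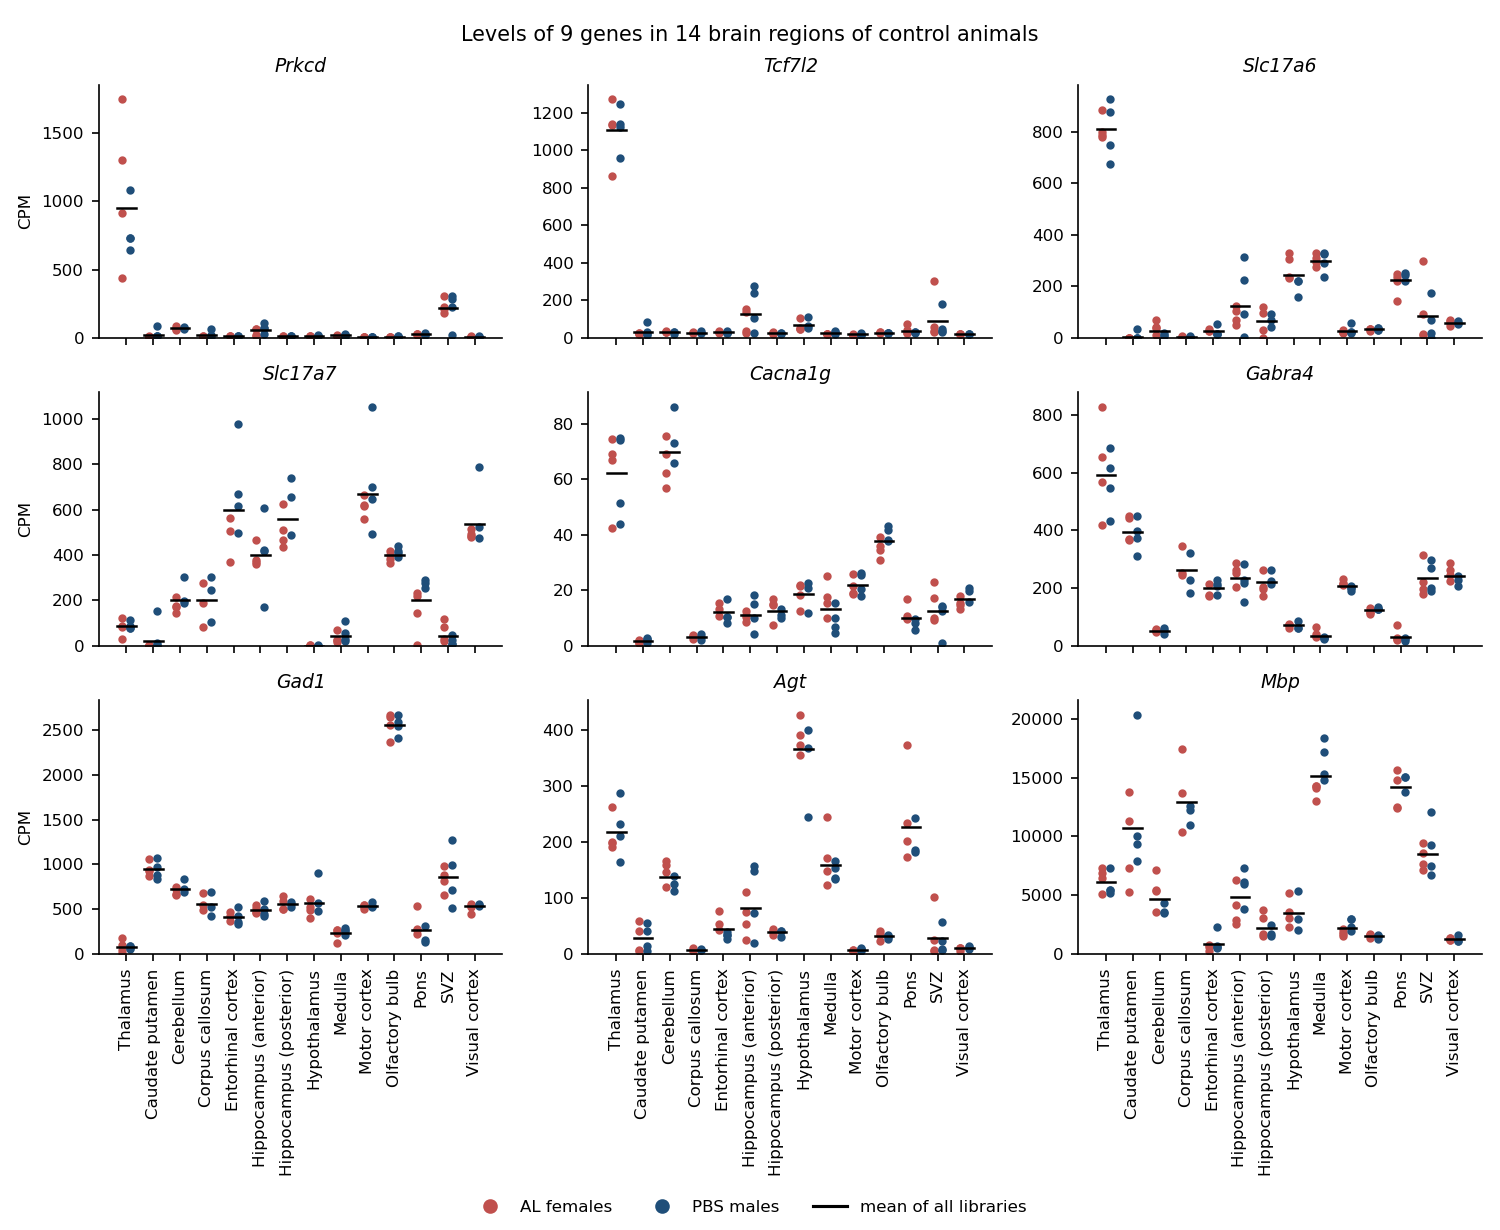
Level of 9 genes in the 14 brain regions of the control mice, in CPM, with a point per library and a line at the region's mean. Prkcd, Tcf7l2 and Slc17a6 have their highest mean in the thalamus, while Slc17a7 is highest in the motor cortex at 669 CPM and Gad1 in the olfactory bulb at 2559 CPM.

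Of 17 markers of inhibitory neurons tested, 12 were lower, against 27.8% of all genes, and 11 of these by at least 2-fold, against 5.34%. Of the list, 1 was higher, and the median difference was -2.49. Their summed level was 108 to 440 CPM in the thalamus libraries and 839 to 4588 CPM in the others, without overlap. Gad1, an enzyme that makes GABA, was at 8.55, 76.6 and 173 CPM against 515 to 650 CPM in the other regions, and the thalamus was the lowest region in 8 of 8 mice. Its difference was -3.31 ± 0.37 (SE, n = 8; limma adjusted p = 5.13e-05). The range of Gad1 within the thalamus was wide, and the dissection of the reticular nucleus, which is rich in this transcript, is not described in the labels. In bulk tissue, fewer cells of a type and less RNA per cell cannot be told apart, here and in every result below.

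Gad2, the other GABA-synthesising enzyme, differed by -2.49 ± 0.32, and Slc32a1, the vesicular GABA transporter, by -3.08 ± 0.32. Sst, the somatostatin gene of cortical interneurons, was lower at -2.81 ± 0.15, and Vip, another interneuron peptide, at -4.70 ± 0.39 with thalamus levels of at most 1.62 CPM. Pvalb, the parvalbumin gene, which marks the reticular nucleus as well as cortical and cerebellar neurons, was at 11.4, 31.1 and 54.0 CPM and was not called at -0.25 ± 0.24 (limma adjusted p = 0.383). Six3, a homeobox factor, was the 1 member that was higher, at 1.98 ± 0.28, though its level of 1.13 to 14.5 CPM lay below the caudate putamen's mean of 79.8 ± 16.5 CPM.

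The genes of the burst firing list, among them low-threshold calcium channels and the HCN channels that pace bursts, did not move together. Of 18 genes tested, 6 were higher and 8 lower, against 29% and 27.8% of all genes, with a median difference of 0.07. The list also holds other channels and the non-channel genes Pex5 and Pex5l. Cacna1g, which encodes the T-type calcium channel of relay neurons, was at 42.3, 68.0 and 74.9 CPM against geometric means of 10.1 to 14.5 CPM in the other regions, though single libraries overlapped, with up to 86.1 CPM in the cerebellum. Its difference was 2.26 ± 0.11 (SE, n = 8; limma adjusted p = 1.93e-07), but its mean of 62.2 CPM stood beside 69.8 ± 9.59 CPM in the cerebellum, and the thalamus was the highest sampled region in 4 of 8 mice, of which mouse 76 had no cerebellum library. Cacna1h, another T-type channel, was lower, at 1.81, 2.87 and 4.87 CPM against 17.1 to 22.3 CPM, a difference of -2.71 ± 0.14.

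Hcn4, a slow channel of the hyperpolarisation-activated current, was at 19.7, 29.7 and 37.0 CPM against 2.66 to 3.90 CPM and differed by 3.23 ± 0.08, highest in the thalamus in 8 of 8 mice. Of 30 voltage-gated potassium and sodium channel genes, 13 were higher and 9 lower, against 29% and 27.8% of all genes. By at least 2-fold, 3 were higher and 1 lower, against 4.54% and 5.34% of all genes. Kcnc2, a Kv3 channel of fast-spiking neurons, had the largest value, with 144, 275 and 337 CPM and a difference of 2.30 ± 0.18. Kcnt2, a sodium-activated potassium channel, differed by 1.04 ± 0.09, Kcnq3, an M-current subunit, by 1.01 ± 0.14, and Kcnq5 of the same family by -1.21.

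Of 27 glutamate transporter and receptor genes, 12 were higher and 8 lower, against 29% and 27.8% of all genes, with a median of -0.04. The 7 that changed by at least 2-fold were all higher, against 4.54% of all genes. Grm2 (1.92 ± 0.13) and Grm4 (1.63 ± 0.07), metabotropic receptors that act mostly at presynaptic sites, were higher, though the olfactory bulb and the cerebellum had the higher means at 98.9 and 191 CPM. Gria2, the subunit that keeps AMPA receptors impermeable to calcium, was lower at -0.96 ± 0.07 in 8 of 8 mice.

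Of 18 GABA receptor subunits and partners, 11 were higher and 4 lower, against 29% and 27.8% of all genes, with a median of 0.62. Against the medulla alone, 11 were higher and 3 lower, beside 27.9% and 28.8% of all genes. Against the motor cortex 7 were higher and 7 lower, beside 31.4% and 28.3% of all genes. Against the hypothalamus 6 were higher and 8 lower, beside 25.8% and 26.3% of all genes. Gabra4, an alpha subunit of extrasynaptic receptors, was at 418, 593 and 829 CPM against geometric means of 119 to 143 CPM in the other regions. Of the 8 thalamus libraries 6 lay above all others, since caudate putamen libraries reached 451 CPM, and the gene differed by 2.11 ± 0.12 (SE, n = 8; limma adjusted p = 5.25e-07). Its partner Gabrd, the delta subunit of tonic inhibition, was at 69.5, 125 and 169 CPM and differed by 1.72 ± 0.13, below the cerebellum at 179 ± 22.0 CPM and the caudate putamen at 173 ± 26.4 CPM. Gabbr2, a subunit of the metabotropic GABA receptor, was at 434, 549 and 762 CPM, differed by 1.97 ± 0.07 and was highest in the thalamus in 8 of 8 mice.

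Of 38 receptors for the brainstem and basal forebrain modulators tested, 12 were higher and 17 lower, near the 29% and above the 27.8% of all genes. Adra1b, an alpha-1 noradrenaline receptor, was at 46.8, 68.7 and 82.4 CPM and differed by 3.17 ± 0.15. Htr7, a serotonin receptor coupled to cyclic AMP, was at 70.9, 80.6 and 97.2 CPM and differed by 2.44 ± 0.05, highest in the thalamus in 8 of 8 mice, with the hypothalamus next at 45.6 ± 7.81 CPM. Chrna4, a subunit of the main nicotinic receptor, differed by 2.32 ± 0.09 and Hrh3, the histamine autoreceptor, by 1.85 ± 0.06. Among the lower genes, Chrm1, a muscarinic receptor, was at 0.939, 3.27 and 9.95 CPM against 36.3 to 70.6 CPM and differed by -3.65 ± 0.40, and Htr2a differed by -2.87 ± 0.35.

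Of 42 genes of the Wnt pathway 20 were higher and 12 lower, against 29% and 27.8% of all genes, with a median difference of 0.36, and the list includes Tcf7l2 and Lef1 themselves. Among targets and feedback inhibitors, Axin2 differed by 0.89 and Nkd1 by 1.83, and Ctnnb1, which encodes beta-catenin, by 0.79, each highest in the thalamus in 8 of 8 mice. The receptor Fzd10 was at 10.4, 17.6 and 26.8 CPM and differed by 3.88 ± 0.15, and the ligand Wnt3 at 33.5, 44.3 and 56.5 CPM by 3.57 ± 0.09. Rspo2, a secreted amplifier of Wnt signals, was near absent: the 8 thalamus libraries held 3 counts in all, or 0.044 CPM, against 64.6 CPM in the 7 posterior hippocampus libraries. That is a ratio of 1454 with a 95% exact interval of 497 to 7053, which covers counting error only.

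Axon guidance genes were 14 higher and 14 lower of 35, against 29% and 27.8% of all genes, with a median of -0.10. Ntng1, given above, led the higher ones, and Epha8, an ephrin receptor, was also higher at 1.82 ± 0.17. Sema3a (-2.99) and Unc5a (-2.11), a secreted guidance cue and a netrin receptor, were lower. Of 12 neurofilament and axonal genes 10 were higher, against 29% of all genes, with a median of 0.54. Against the medulla alone, 1 of them was higher and 7 lower, with a median of -0.32, beside 27.9% and 28.8% of all genes. Nefh, the heavy neurofilament of thick axons, was at 148, 239 and 338 CPM and differed by 1.23 ± 0.11, Gap43, a growth cone protein, by 1.10, and Map2, which is dendritic, was the 1 lower member at -0.46 ± 0.04. Of 14 matrix genes 6 were higher and 5 lower, against 29% and 27.8% of all genes. Among them were Tnc at 2.20 ± 0.31 and Hapln1, a link protein of perineuronal nets, at -2.35 ± 0.12.

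**Figure D3:**
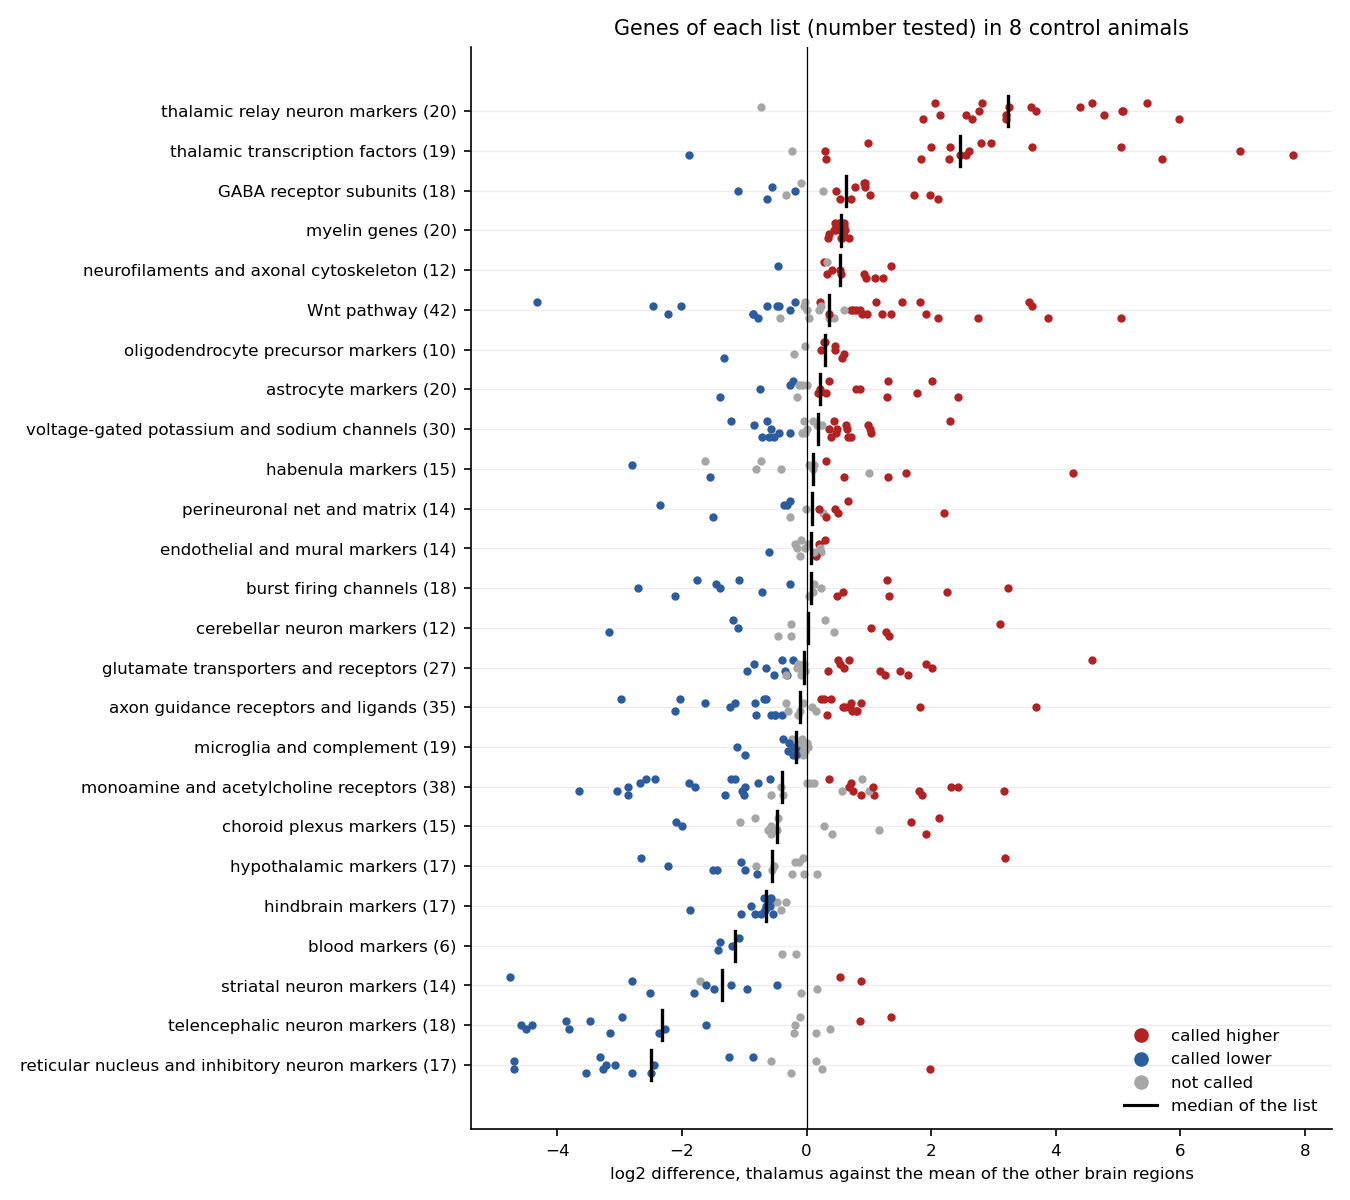
Log2 difference of the thalamus against the mouse's other regions for each tested gene, by gene list, with a bar at the list's median; colours separate genes called higher, called lower and not called. The medians run from -2.49 for the inhibitory neuron markers to 3.23 for the relay neuron markers.

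All 20 myelin genes were higher, against 29% of all genes, none by 2-fold, with a median of 0.56. Mbp, the myelin basic protein gene, was at 5126, 5964 and 7338 CPM and differed by 0.56 ± 0.06, and Mog, a surface protein of the myelin sheath, by 0.62 ± 0.03. The direction depended on the region set beside the thalamus. The 20 genes were higher than in the motor cortex (median 1.36) and the hypothalamus (0.75), against 31.4% and 25.8% of all genes. In the medulla comparison 20 of 20 were lower (-0.98), against 28.8% of all genes. Of 10 genes of oligodendrocyte precursors and their progeny, 7 were higher and 1 lower, against 29% and 27.8% of all genes.

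Of 20 astrocyte markers 12 were higher and 4 lower, against 29% and 27.8% of all genes, with a median of 0.21. Agt, the angiotensinogen gene of non-telencephalic astrocytes, was at 163, 206 and 287 CPM against geometric means of 30.8 to 50.6 CPM and differed by 2.42 ± 0.14. Single libraries overlapped, since the hypothalamus had a mean of 366 ± 58.3 CPM. Itih3, a matrix-binding protein, differed by 2.01 ± 0.13 and Slc6a11, the astrocytic GABA transporter GAT3, by 1.77 ± 0.08. Gfap, the intermediate filament of fibrous and reactive astrocytes, went the other way, at 92.4, 165 and 442 CPM against 385 to 552 CPM, a difference of -1.40 ± 0.24 (SE, n = 8; limma adjusted p = 7.41e-04) in 7 of 8 mice.

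Of 19 microglia and complement genes, none were higher and 10 were lower, against 27.8% of all genes, with a median of -0.17. Here too the direction depended on the region compared. Against the medulla 2 were higher and 15 lower (median -0.60), beside 27.9% and 28.8% of all genes. Against the motor cortex 10 were higher and 2 lower (0.28), beside 31.4% and 28.3% of all genes. Against the hypothalamus 1 was higher and 2 lower (0.10), both shares below the 25.8% and 26.3% of all genes. P2ry12, the purinergic receptor of resting microglia, was at 36.5, 40.9 and 46.5 CPM against 45.8 to 56.4 CPM, a difference of -0.28 ± 0.05 in 8 of 8 mice. Larger differences were those of Lpl (-1.12), a lipase, and of the complement gene C4b (-0.99 ± 0.21). Of 14 endothelial and mural genes 3 were higher and 1 lower, both shares below the 29% and 27.8% of all genes.

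Of 18 telencephalic neuron markers, 11 were lower and 2 higher, against 27.8% and 29% of all genes, with a median of -2.33. Neurod6 (-4.59 ± 0.28) and Neurod2 (-4.50 ± 0.31), factors of cortical and hippocampal excitatory neurons, did not exceed 1.55 CPM in any thalamus library.

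Among the 10 genes with the largest negative differences, Igfbp6, a binding protein for insulin-like growth factors, was at 0.251, 0.538 and 1.28 CPM against 20.05 to 30.8 CPM, and was lowest in the thalamus in 8 of 8 mice. It differed by -4.88 ± 0.18 (SE, n = 8; limma adjusted p = 5.05e-08). Crym, a thyroid hormone-binding protein, did not exceed 0.768 CPM and differed by -5.31 ± 0.38, a call lost with limma's default trend (adjusted p = 0.113). Penk, the enkephalin precursor of striatal projection neurons, was at 1.42, 7.55 and 28.5 CPM against 164 to 221 CPM elsewhere and 3146 ± 624 CPM in the caudate putamen. Its difference was -4.75 ± 0.42. Of 14 striatal markers 9 were lower and 2 higher, against 27.8% and 29% of all genes. Lamp5 (-4.69 ± 0.18), a membrane protein of some interneurons, was highest in the medulla, Itpka (-4.70 ± 0.35), a kinase of dendritic spines, in the motor cortex, and Meis2 (-4.69 ± 0.52), a homeobox factor, in the olfactory bulb.

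Markers of the cerebellum were 4 higher and 3 lower of 12, near the 29% and 27.8% of all genes. Cbln1, a synaptic organiser released by granule cells and also made in thalamic nuclei, was higher at 3.10, and Reln, the extracellular glycoprotein reelin, was lower at -3.18 ± 0.30 and lowest in 8 of 8 mice. Of 17 hypothalamic markers tested, 7 were lower and 1 higher, against 27.8% and 29% of all genes. The higher one, the neuropeptide gene Gal, was at 3.23, 17.7 and 23.3 CPM. It differed by 3.18 ± 0.23, below the hypothalamus at 107 CPM. Of 15 habenula markers 5 were higher and 2 lower, against 29% and 27.8% of all genes. Gpr151, a receptor of habenular neurons, was at 3.64, 16.8 and 107 CPM, the highest in PBS mouse 76, and differed by 4.27 ± 0.39. Tac2, which encodes neurokinin B, was not called at -1.63 ± 0.67 (limma adjusted p = 0.0635), with 54.6 CPM in the same library, and was lower at -2.31 without that mouse (limma adjusted p = 0.00433).

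Of 15 choroid plexus markers 3 were higher and 2 lower, both shares below the 29% and 27.8% of all genes. Ttr, the transthyretin gene of the plexus, was at 1400 CPM in the library of PBS mouse 72 and at no more than 5.97 CPM in the other 7. It was not called over the 8 mice at -0.84 ± 1.25 (limma adjusted p = 0.590), and was lower at -2.32 without mouse 72 (limma adjusted p = 0.00248). The 3 plexus-list genes that were higher were Otx2 (2.12), Prlr (1.92) and Clic6 (1.67), of which Otx2 is also a factor of the midbrain and thalamic border. Of 6 blood genes 4 were lower, against 27.8% of all genes.

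**Figure D4:**
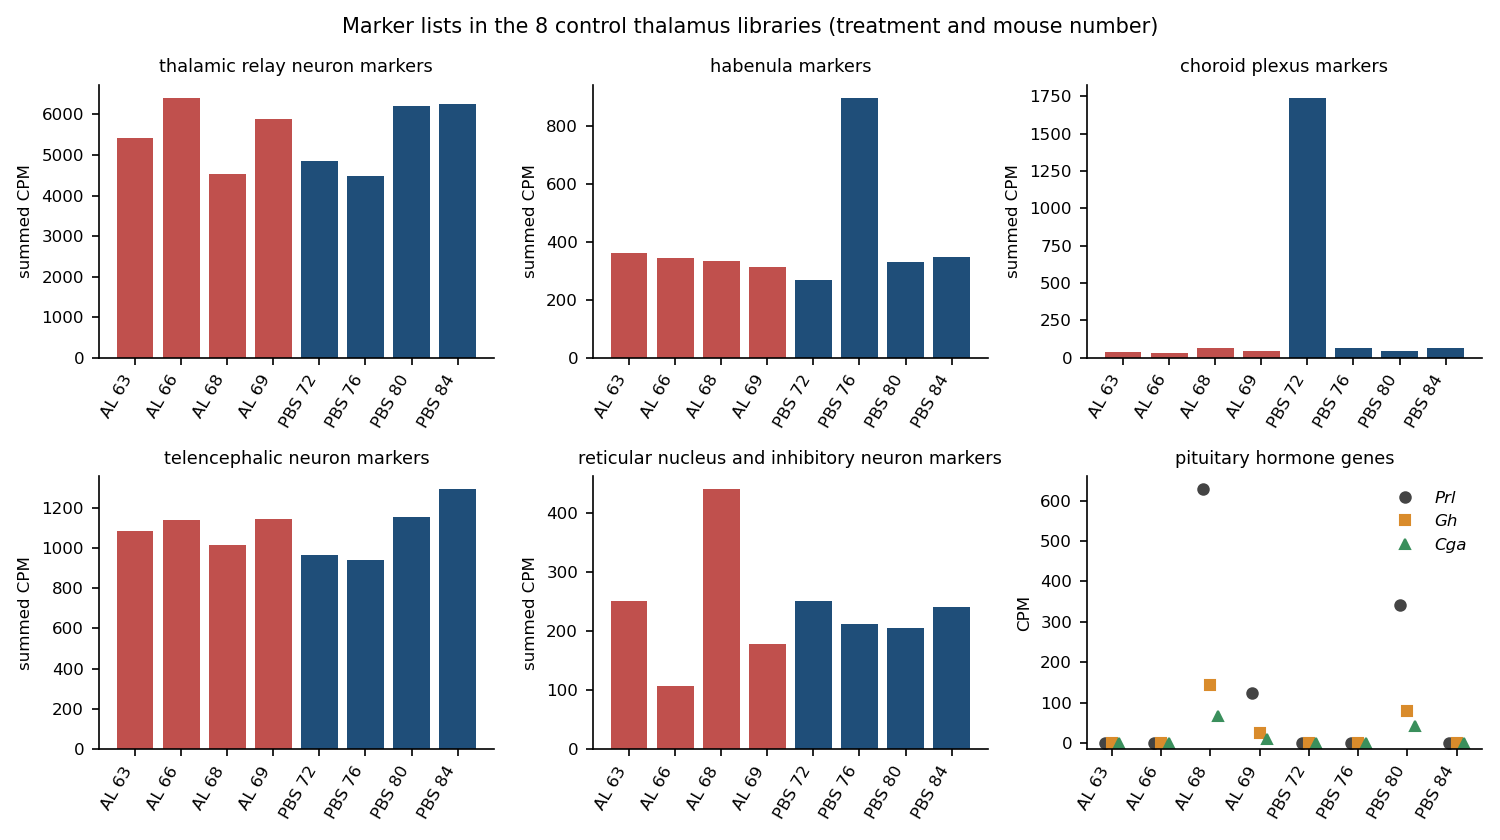
Summed CPM of 5 marker lists, and CPM of the pituitary genes Prl, Gh and Cga, in each of the 8 thalamus libraries. The plexus markers reach 1741 CPM in PBS mouse 72 and the habenula markers 897 CPM in PBS mouse 76, while Prl is above 0 in 3 libraries.

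Against single regions of the same mice, which all share the 8 thalamus libraries, the largest negative differences changed with the region compared. At the positive end, Abhd12b was among the 4 largest against each region given below. Against the hypothalamus (7 mice), 7938 genes were called (52%), 3928 higher (25.8%) and 4010 lower (26.3%), 797 of them at least 2-fold higher (5.23%) and 1014 at least 2-fold lower (6.65%). Shox2 (7.44 ± 0.71), Slc17a7 (6.81 ± 0.50), Abhd12b (6.57 ± 0.39) and Tnnt1 (6.27 ± 0.55) led the higher genes, each in 7 of 7 mice. The lower end held the hypothalamic peptides: all 17 hypothalamic markers tested were lower, against 26.3% of all genes. They were listed as markers of the region compared, so this count was largely fixed by the choice of list and is no test. Oxt, the oxytocin gene, had 1 count in all 8 thalamus libraries together and 299 CPM in the pooled hypothalamus libraries, a ratio with a 95% exact interval from 3627 upward that covers counting error only. Avp, vasopressin, also had 1 count, and Hcrt, orexin, had 3. Pmch, melanin-concentrating hormone, differed by -9.39 ± 1.07.

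Against the medulla (8 mice), 8649 genes were called (56.7%), 4250 higher (27.9%) and 4399 lower (28.8%), 1061 at least 2-fold higher (6.96%) and 1015 at least 2-fold lower (6.65%). Ramp3 (7.44 ± 0.16), Abhd12b (6.98 ± 0.25), Snx31 (6.75 ± 0.16) and Adra2b (6.66 ± 0.21) were the largest higher genes. All 17 hindbrain markers tested were lower, against 28.8% of all genes, and 9 of the 21 on the list were at 0 in all 8 thalamus libraries. The medulla is part of the hindbrain, so this count too was largely fixed by the choice of list. Slc6a5, the glycine transporter of inhibitory hindbrain neurons, differed by -7.93 ± 0.31 and Lamp5 by -7.05 ± 0.19. The Hox gene Hoxd3, which is set on in the posterior neural tube, had no count in the thalamus, so that its pooled level of 17.8 CPM in the medulla was at least 402-fold higher than a floor of 3 counts over the 8 thalamus libraries. Nxph4, a ligand of neurexins, differed by -6.41 ± 0.36.

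Against the motor cortex (8 mice), to which thalamic motor nuclei project, 9109 genes were called (59.7%), 4790 higher (31.4%) and 4319 lower (28.3%), 1274 at least 2-fold higher (8.35%) and 1232 at least 2-fold lower (8.08%). Shox2 (9.73 ± 0.10), Gbx2 (8.55 ± 0.12), Slitrk6 (8.33 ± 0.19) and Abhd12b (7.14 ± 0.40) were higher in 8 of 8 mice. Neurod6 (-7.92 ± 0.37), Vip (-7.82 ± 0.40), Igfbp6 (-7.12 ± 0.18) and Fezf2 (-7.05 ± 0.46), a selector of deep-layer projection neurons, were lower. All 18 telencephalic markers were lower, with a median of -3.99, against 28.3% of all genes. The motor cortex is part of the telencephalon, so the choice of list largely fixed this count as well.

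Whether the thalamic profile differed between the cohorts was tested with the cohort term of the same limma model. No gene was called, and 335 of 15252 had an unadjusted p under 0.05 (2.2%). The smallest adjusted p was 0.999, and the alternative settings also gave 0 calls. The 5 genes with the smallest unadjusted p were Ccl4, Cnn1, Apod, Bnc2 and Adamts4. Apod, a lipid-binding apolipoprotein, was the most abundant, with a thalamic difference of 0.07 in AL females and -0.29 in PBS males. With 4 mice a cohort, a p that misses the threshold does not show that the cohorts are alike.

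The treated mice gave a separate set of animals for the same thalamic difference, 5 aDR females and 3 YMP males, analysed with their own other regions. There 7834 of 15163 genes were called (51.7%), 3824 higher (25.2%) and 4010 lower (26.4%), 676 at least 2-fold higher (4.46%) and 786 at least 2-fold lower (5.18%). Of the 1506 genes at least 2-fold different in the controls, 1495 were tested and 1447 were called in the same direction at any size, 96.1% of the control genes, and 0 in the opposite one. Of all 8664 control calls, 7039 were called in the same direction (81.2%) and 0 in the opposite one. Shox2 differed by 7.55 in the treated mice, Gbx2 by 6.75, Tcf7l2 by 5.07, Prkcd by 5.58, Crym by -4.66 and Igfbp6 by -4.46, each in 8 of 8 mice. The relay markers kept 19 of 19 calls and the myelin genes 20 of 20, and the microglia genes 8 of 10.

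**Figure D5:**
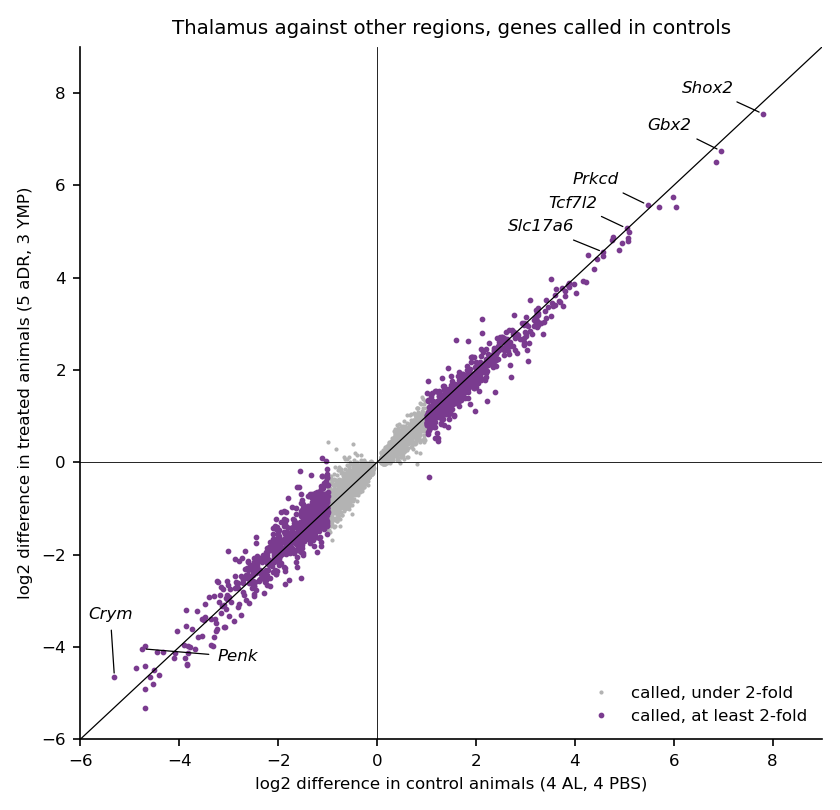
Log2 difference of the thalamus against the other regions in the control mice (horizontal) and in the treated mice (vertical) for genes called in the controls and tested in both. Shox2 lies at 7.80 and 7.55 and Crym at -5.31 and -4.66, and 8583 of the 8624 genes have the same sign in both sets.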

How the data were processed

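Read counts per gene were deposited by the authors as 1 table of whole-number counts for 21076 genes and 238 libraries. Per the submitters' processing notes, Trim Galore 0.3.7, STAR 2.5.3a and DESeq2 were used with the GRCm38 build; the counting program and annotation are not given in the sources used here. Counts were unstranded, so overlapping antisense genes cannot be told apart, and 537 genes without a count in any library were dropped by the filter. Libraries were matched to mice by the number in their labels, and each replicate is a separate mouse.

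From the counts of the 104 control libraries, TMM-scaled log2 CPM were computed here with edgeR 4.0.16 in R 4.3.3 (prior count 2, genes kept at a minimum count of 10 and a total of 15). The difference per mouse was fitted with limma 3.58.1, with cohort coded so that the intercept is the mean of the cohorts, a variance trend over mean expression, and Benjamini-Hochberg adjustment over all tested genes. The trend over mean expression replaced limma's trend over the mean difference after a first look at results; the latter is kept as an alternative. The mouse pairs the regions: deviations from the region means correlated at 0.036 (AL) and 0.095 (PBS) within a mouse and at -0.012 and -0.032 between mice, and the pairing rests on the labels. No 2 thalamus libraries of a group matched within sampling noise (lowest chi-square per degree of freedom 5.15 over 12 pairs). On simulated counts for the main comparison, with 14882 genes tested, limma recovered 90 of 97 genes changed 2-fold and 97 of 100 changed 4-fold. Of its 199 calls, 12 were unchanged genes. Apart from the changed genes, every simulated library shared the same mean profile, without differences between the other regions or between mice. The data do not have that form, so these rates cannot be carried over to the comparison itself.

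Named genes are the 15 largest positive and 10 largest negative differences with the same sign in every mouse and at least 10 CPM, up to 4 examples from each of 25 gene lists, 20 genes always given, the 4 largest each way against each single region, and the 5 smallest p of the cohort term. The few others were chosen after their values were seen, and some named genes are not reported here. The lists, the named genes and the comparisons were chosen with earlier results of these data known. Sequences and positions are RefSeq's (GRCm38.p6): a position was looked up for 108 named genes and found for all, and Snx31 had no promoter entry. Alternatives were other size factors and prior counts, no filter, other summaries of the other regions, single cohorts, edgeR and DESeq2 1.42.0 count models, no pairing, and leaving out mice.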

Additional observations from a re-analysis of the deposited data

Results flagged for a closer look

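In each group of 4 thalamus values, a mouse whose gap to its nearest neighbour took most of the group's range was noted; 20 of 262 groups met this, and chance gives about 1 in 20, or 13.1 here. No explanation of these values was tested.

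PBS mouse 76 stood apart in 6 groups. Its habenula markers summed to 897 CPM against 267 to 349 in the other PBS mice, and its log2 difference against the other regions was the highest of the cohort for Pdyn (0.99 against -3.24 to -3.96), the dynorphin precursor, and Neurod6 (-2.99 against -5.32 to -5.45). It was the lowest for the channel Kcnc2 (1.29 against 2.55 to 2.68), for Tafa4 (4.27 against 4.70 to 4.79) and for the myelin gene Mag (0.27 against 0.51 to 0.55).

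AL mouse 68 stood apart in 5. Its difference for Dlx1, a forebrain factor of inhibitory neurons (0.26 against -4.96 to -5.77), was the highest of the cohort, and those for Hcn4 (2.85 against 3.33 to 3.43) and Lef1 (2.78 against 3.78 to 3.98) the lowest. The genes of its burst firing list summed to 527 CPM against 697 to 731. Its Wnt pathway genes summed to 1932 CPM against 2431 to 2515. Both sums were the lowest of the AL mice.

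PBS mouse 72 was highest for choroid plexus markers (1741 CPM against 45.5 to 63.6), for Ttr (a difference of 8.94 against -2.47 to -3.86) and for the summed myelin genes (18085 CPM against 12473 to 13333). In AL mouse 69, the neuronal cytoskeleton genes Stmn2 (1.26 against 0.77 to 0.83) and Tubb3 (1.17 against 0.80 to 0.86) were highest and the striatal marker Ppp1r1b (-3.37 against -2.20 to -2.39) lowest. AL mouse 63 was highest for Vip (-2.81 against -5.27 to -5.58) and lowest for Rspo2 (-5.09 against -4.12 to -4.27), and PBS mouse 84 was highest for the oligodendrocyte factor Olig2 (0.64 against 0.31 to 0.36).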

How the results depend on the processing

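The count of 8664 called genes in controls stayed within 1.5 times under every setting but 1: in the 4 AL females alone it was 5667, with fewer mice, while the 4 PBS males alone gave 5981. Without the pairing of regions by mouse (no replicate block) it was 8292, and count models with the mouse as a replicate block called 9254 genes in edgeR and 9359 in DESeq2. Leaving out each mouse gave 7957 to 8520 calls, and leaving out mice 72 and 76 together, chosen after seeing the data, 7497. The cohort term gave 0 calls under each setting run. Of 112 named genes, 92 kept their direction and side of the threshold under all 24 settings. Direction turned for 5 genes, of which only Hoxa5 was called as reported (-0.53, adjusted p = 0.0268). Ttr was at 1.56 in DESeq2, 2.69 in edgeR and 1.31 against the median of the other regions; Hoxa5, at 0 in 5 of 8 libraries, at 0.23 in edgeR and 0.23 against the median. Nwd2, a habenula gene, was at 0.047 in DESeq2 and 0.053 in edgeR, and Tac2 at 0.29 in edgeR. Pvalb was at 0.031 against the 6 regions every mouse has and 0.045 without the cerebellum. The cause was not tested. With limma's default trend, Shox2 (adjusted p = 0.164) and Crym (0.113) were no longer called. Depth limits the genes at or near 0 in the thalamus, whose fitted differences are no bound.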

Other observations

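In the 3 thalamus libraries that held pituitary transcripts, small amounts of the transcripts of the other sex were also counted. Ddx3y, a Y-linked gene, was at 85.3 to 112 CPM in the PBS males, at 0 in the AL females 63 and 66, and at 0.939 and 1.11 CPM in the AL females 68 and 69. Xist, the transcript of the inactive X chromosome, was at 117 to 155 CPM in the AL females, at 0 to 0.538 CPM in the PBS males 72, 76 and 84, and at 1.42 CPM in PBS male 80. Prl exceeded 10 CPM in 11 of the 96 other brain libraries and was at 0 in 63 of them, with its highest value, 750.3 CPM, in a medulla library. The source of these counts was not tested.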
